A study of Mus musculus with 10 samples.

Results

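The unfolded protein response and the folding machinery of the endoplasmic reticulum (ER) were followed through 30 genes in mouse Tregs (regulatory T cells, the Foxp3-expressing CD4 lineage that restrains immune responses). The genes were chosen by function: 3 ER stress sensors, the transcription factor gene Xbp1, 14 chaperones and folding enzymes, 7 genes of ER-associated degradation, 2 regulatory subunits of a phosphatase that restarts translation, and 3 genes of the channel through which new proteins enter the ER. All 30 were found among the 23992 gene symbols of the deposited files, 1 transcript per symbol, and all 30 passed the filter on low counts in both comparisons. The 10 libraries were made from C57BL/6J mice. Wild-type natural Tregs from spleen were kept in culture for 24 h under T cell receptor stimulation (anti-CD3 and anti-CD28), either alone (TCR, 2 libraries) or together with thymic stromal lymphopoietin (TCR+TSLP, 2 libraries), an epithelial cytokine. Lung Tregs came from mice immunized with ovalbumin (OVA) and carried Foxp3YFP-Cre, a Cre recombinase driven by the Foxp3 gene. They either had an intact Crlf2, the gene of the TSLP receptor chain (control, 3 libraries), or were Crlf2fl/fl, so that Crlf2 is deleted where Foxp3 is or was active (Crlf2-deleted, 3 libraries). For the TSLP dose, the age of the mice and pooling of animals, the sources used here give nothing. Whether replicates came from separate mice or cultures is not labelled, and p-values therefore reflect only the spread among these samples, which may be technical.

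Proteins that enter the secretory pathway fold inside the ER with the help of chaperones, of which BiP, the product of Hspa5, is the most general. When unfolded proteins build up, BiP leaves 3 membrane sensors: IRE1 (Ern1) splices the mRNA of Xbp1, ATF6 (Atf6) is cut to release a transcription factor, and PERK (Eif2ak3) phosphorylates eIF2alpha and slows translation. XBP1 and ATF6 raise chaperone and degradation genes, and PERK acts through ATF4. The response is best known from secretory cells such as plasma cells, and activated T cells also use it as they grow and make surface receptors and cytokines.

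Reads assigned to genes numbered 27237314 to 51671904 per spleen library. Lung libraries held 1439675 (control 2) to 18349040. The 30 genes together took 0.543% and 0.595% of these reads in the TCR libraries, 0.726% and 0.711% in the TCR+TSLP libraries, 0.414 to 0.457% in the lung controls and 0.435 to 0.463% in the Crlf2-deleted libraries. Crlf2, on chromosome 5, was read in the lung controls at 92.8, 145.7 and 105.1 normalised reads, and after deletion at 9.06, 6.73 and 3.55 (log2 fold change -4.16, SE 0.36, edgeR quasi-likelihood test, adjusted p = 0.00465). Normalised reads are CPM (read counts divided by library size) after TMM scaling, which corrects for composition. The 6 defining Treg genes (Foxp3, Il2ra, Ctla4, Ikzf2, Cd3e and Cd4) had reads in every library, with a summed level of 1920 to 2980 CPM in spleen and 1080 (control 3) to 2790 in lung. In the spleen libraries the plasma cell genes Igj and Tnfrsf17 stood at 0.144 to 0.545 and at 0 CPM. The whole list of 6 plasma cell genes summed to 503 and 497 CPM without and 992 and 1050 with TSLP. Most of that sum was Irf4. Sdc1 was also higher with TSLP, at 5.37 and 4.49 against 1.83 and 3.19 CPM, and so was Prdm1 in both libraries. The cell source of these reads was not tested.

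Promoters of these genes are known for the ER stress element (ERSE), in which the factor NF-Y sits on one end and ATF6 or XBP1 on the other. It was searched as CCAAT, any 9 bases and CCACG, and its relative ERSE-II as ATTGG, any 1 base and CCACG, on both strands of the RefSeq promoters (build GRCm38.p6, 250 bases before to 50 after the transcription start). Of the 24 genes with a promoter in that table, 8 held an ERSE and 2 others an ERSE-II, or 41.7%. Among the 10313 tested genes with a promoter there, these 24 included, the share was 0.27%. Counted over all 32851 promoters of the same length it was 0.155%. Promoters of these genes were already known for the element, so the difference is not independent support. The 11 elements follow, read in the direction of the motif, with its fixed letters in capitals, because they are a sequence feature that 10 of the genes share.
Hspa5, chr2:34772025-34772043, plus strand: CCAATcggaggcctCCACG
Hsp90b1, chr10:86705638-86705656, minus strand: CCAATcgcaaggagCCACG
Hsp90b1, chr10:86705533-86705551, plus strand: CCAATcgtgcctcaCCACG
Dnajc3, chr14:118937827-118937845, plus strand: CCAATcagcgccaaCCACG
Creld2, chr15:88819520-88819538, minus strand: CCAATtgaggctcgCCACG
Calr, chr8:84847075-84847093, plus strand: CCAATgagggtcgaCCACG
Canx, chr11:50325800-50325818, minus strand: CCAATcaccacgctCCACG
Pdia6, chr12:17266491-17266509, plus strand: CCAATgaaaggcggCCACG
Syvn1, chr19:6046532-6046550, plus strand: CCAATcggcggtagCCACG
Herpud1, chr8:94386377-94386387, plus strand: ATTGGgCCACG
Dnajb11, chr16:22857852-22857862, plus strand: ATTGGcCCACG

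The ERSE of Hspa5 ended 47 bases before the start site and that of Syvn1 26 bases before it. In Hsp90b1, Creld2 and Calr an element lay on the strand opposite to the gene, and Hsp90b1 held 2. The ERSE-II of Dnajb11 lay 8 to 18 bases after the start, and the other 10 elements lay before it. The 250 bases before the start of 3 of these genes are shown with the element in capitals, because Hspa5 and Herpud1 were higher and Calr was lower with TSLP, as described below.
Hspa5, chr2:34771840-34772089, plus strand: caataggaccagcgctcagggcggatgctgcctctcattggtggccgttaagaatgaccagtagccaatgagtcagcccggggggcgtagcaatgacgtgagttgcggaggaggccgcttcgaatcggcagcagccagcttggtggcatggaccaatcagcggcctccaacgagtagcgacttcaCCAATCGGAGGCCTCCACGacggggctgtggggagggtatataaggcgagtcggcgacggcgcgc
Calr, chr8:84846932-84847181, minus strand: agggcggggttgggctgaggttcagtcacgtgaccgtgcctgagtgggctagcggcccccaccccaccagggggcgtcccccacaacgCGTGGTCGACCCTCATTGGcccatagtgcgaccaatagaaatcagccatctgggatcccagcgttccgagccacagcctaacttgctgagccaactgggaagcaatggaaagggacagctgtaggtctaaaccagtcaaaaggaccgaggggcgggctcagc
Herpud1, chr8:94386179-94386428, plus strand: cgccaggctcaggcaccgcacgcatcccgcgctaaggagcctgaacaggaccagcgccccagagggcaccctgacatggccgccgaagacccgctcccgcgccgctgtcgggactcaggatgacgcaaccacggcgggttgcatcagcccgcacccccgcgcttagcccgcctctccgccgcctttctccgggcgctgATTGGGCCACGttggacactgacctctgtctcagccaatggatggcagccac

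The shorter elements UPRE (TGACGTGG) and CARE (TGATGCAAT), searched the same way, were in 0 of the 24 genes. They were in 1.04% and 0.15% of the tested genes and in 0.676% and 0.192% of all promoters. A match describes the letters only.

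In culture the question was what TSLP adds to stimulation through the T cell receptor. The sensor genes Eif2ak3 and Atf6, the transcription factor gene Xbp1, the BiP gene Hspa5 and the disulphide isomerase gene Pdia4 were higher with TSLP, while the translocon subunit gene Sec61b and 5 others were lower. Of the 30 genes 12 rose, where 22.7% of the 13214 genes tested did, and 6 fell, where 23.1% did. In either direction 18 of 30 passed, where 45.8% of all genes did. The other 12 did not pass. The median log2 fold change was 0.24, against 0.01 over all genes. The call depended on scaling: with library totals as the only scaling the median of all genes shifted to 0.24 and 18 of the 30 rose and 1 fell (38.3% and 15.1% of all genes). On the deposited RPKM scale it shifted to 0.20 and again 18 rose and 1 fell (43.0% and 9.46% of all genes, limma). The median of the 30 exceeded that of all genes by 0.234 with TMM and by 0.324 on log2(RPKM + 1). There the added 1 shrinks the changes of genes with low RPKM, and its part in the larger excess was not tested. With library totals the excess was 0.235. That scaling shifts all genes alike, so its excess had to stay near the TMM value. The excess was 0.122 with the length trend removed, 0.0681 with length and GC trends removed and 0.135 without TCR library 1.

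**Figure D1:**
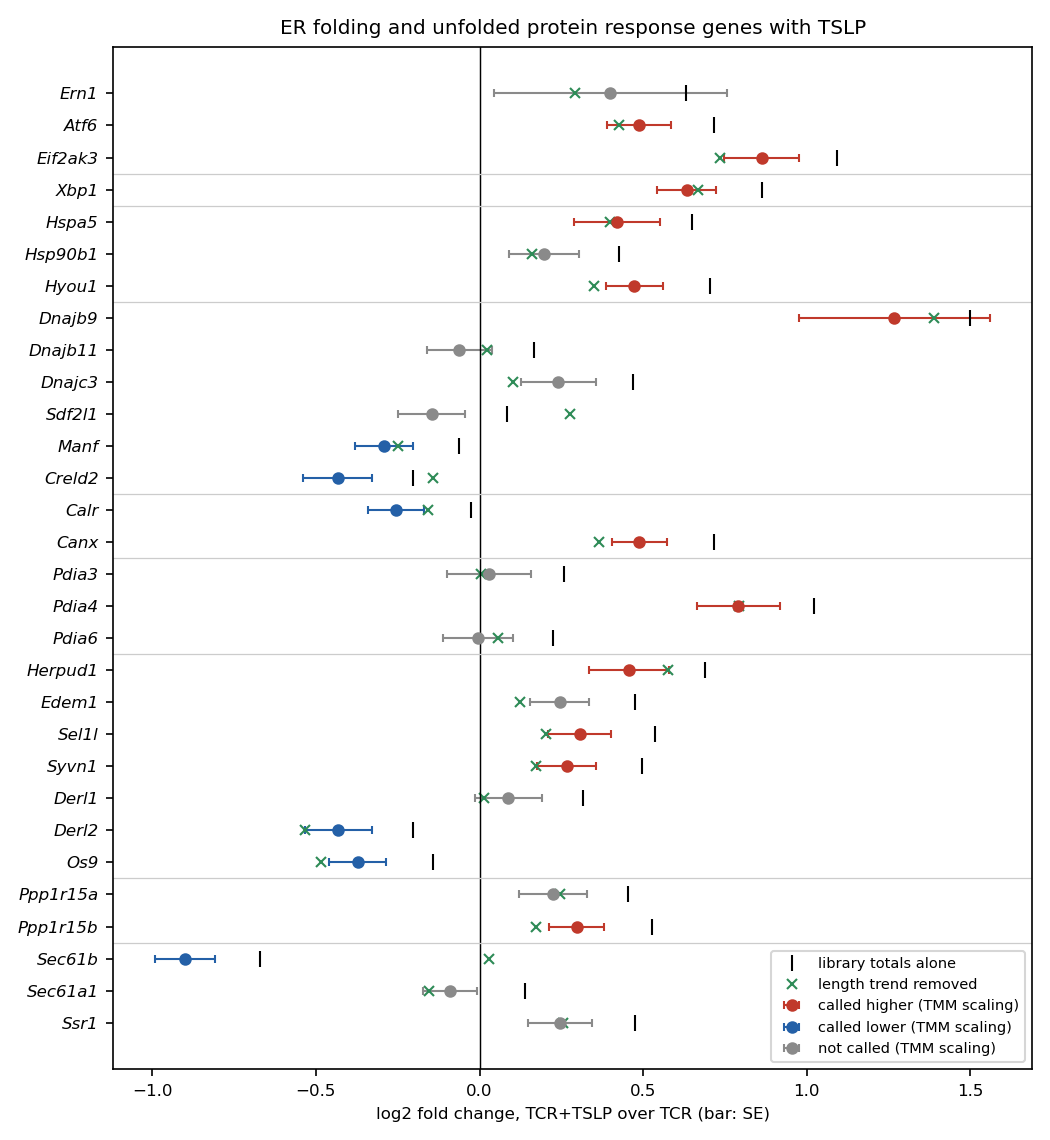
Log2 fold change of TCR+TSLP over TCR for the 30 genes, grouped by role from sensors (top) to translocon (bottom). Points are edgeR estimates with TMM scaling and bars their SE, coloured by call at an adjusted p of 0.05, black ticks give the value with library totals alone and green crosses that with the length trend removed. Dnajb9 lies farthest to the right at 1.27 and Sec61b farthest to the left at -0.90, and the cross of Sec61b lies at 0.029.

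Among the sensors, Eif2ak3, which encodes PERK, stood at 9.61 and 9.46 normalised reads in the TCR libraries and at 17.5 and 17.2 under TSLP (log2 fold change 0.86 with an SE of 0.11, adjusted p = 0.000837). Atf6 stood at 22.2 and 22.4 without and at 30.2 and 32.3 with TSLP (0.49, SE 0.10, adjusted p = 0.00534). In both genes the 2 groups lay apart by more than the replicates differed. Ern1, the IRE1 gene, was low, at 2.945 and 1.44 without and 2.33 and 3.42 with TSLP, and its groups overlapped (0.40, SE 0.36, adjusted p = 0.387). The value for Ern1 moved to 1.03 without TCR library 1 and to 0.018 without TCR library 2. Xbp1, the target that IRE1 splices, stood at 143 and 159 without and at 231 and 238 with TSLP (0.63, SE 0.09, adjusted p = 0.00119). Xbp1 and Pdia4 passed in the same direction under all 16 other settings tried. The counts tested are those of 1 transcript row per gene, and how reads were given to the 2 rows of Xbp1 is not stated. They are therefore not a measure of spliced against unspliced Xbp1.

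Hspa5, on chromosome 2 (34772090 to 34776529, plus strand), stood at 460.5 and 606 normalised reads without and at 738 and 688 under TSLP (log2 fold change 0.42 with an SE of 0.13, adjusted p = 0.0317). The TCR libraries differed from each other by more than the TCR+TSLP libraries did, and all 4 values kept the groups apart. Without TCR library 1 its change was 0.24 (adjusted p = 0.0109). Without TCR+TSLP library 1 the call on Hspa5 was lost (0.36, adjusted p = 0.0966), and likewise with both length and GC trends taken out (0.33, adjusted p = 0.0561). Hyou1, the ER exchange factor that resets BiP, went from 172 and 159 to 227 and 232 (0.47, SE 0.09, adjusted p = 0.00346). Hsp90b1, which encodes GRP94, the HSP90 of the ER, stood at 726 and 860 without and at 939.9 and 877 with TSLP and did not pass (0.20, SE 0.11, adjusted p = 0.166).

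The J-proteins, which bring unfolded substrates to BiP, and the small ER chaperones were divided. Dnajb9 stood at 1.82 and 3.71 without and at 6.98 and 6.34 with TSLP, on the log2 scale a change of 1.27 (SE 0.29, adjusted p = 0.00932) and the largest rise of the 30 with TMM. Without TCR library 1 the value for Dnajb9 was 0.84, below Ern1 at 1.03 and Eif2ak3 at 0.88. On log2(RPKM + 1) Dnajb9 was at 0.81, below Pdia4 at 1.12 and Xbp1 at 0.98. The added 1 shrinks the change of a gene this low. The deposited RPKM of Dnajb9 was 0.342 and 0.781 without and 1.785 and 1.64 with TSLP. Per length its level in the TCR cultures was the 29th of the 30. Creld2, an ER-resident protein released under stress, went the other way, from 84.7 and 94.3 to 70.6 and 62.05 (-0.43, SE 0.11, adjusted p = 0.0115). The fall of Creld2 was lost with library totals (-0.20, adjusted p = 0.12), on the RPKM scale (-0.061, adjusted p = 0.766, limma) and with the length trend removed (-0.14, adjusted p = 0.244). Manf, a secreted BiP cofactor, stood at 198.9 and 211 without and 173 and 162 with TSLP (-0.29, SE 0.09, adjusted p = 0.0272), and its sign turned on the RPKM scale (0.077, adjusted p = 0.691, limma). Of the other BiP partners, Dnajb11 (-0.06), Dnajc3 (0.24) and Sdf2l1 (-0.15) did not pass. Sdf2l1, whose transcript is 1108 bp long, was called higher when the length trend was removed (0.28, adjusted p = 0.0402) and lower without TCR library 1 (-0.26, adjusted p = 0.00334).

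The lectin chaperones, which hold glycoproteins until they fold, also moved apart. Canx, the membrane-bound calnexin, stood at 439 and 426 without and at 610.0 and 602 under TSLP (log2 fold change 0.49 with an SE of 0.08, adjusted p = 0.00259). Calr, its soluble counterpart calreticulin, stood at 1016 and 984 without and at 849 and 826 with TSLP (-0.26, SE 0.09, adjusted p = 0.0399). The rise of Canx was lost with length and GC trends removed (0.17, adjusted p = 0.0983). The fall of Calr is tied to the scaling, with a value of -0.03 for library totals (adjusted p = 0.799) and 0.11 on the RPKM scale (adjusted p = 0.502, limma). Among the disulphide isomerases, Pdia4 went from 86.1 and 112 to 174 and 169 (0.79, SE 0.13, adjusted p = 0.00195), whereas Pdia3, the partner of the lectin chaperones, stood at 0.03 (SE 0.13) and Pdia6 at 0.00 (SE 0.11).

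Genes of ER-associated degradation, which send misfolded proteins to the proteasome, rose in 3 of 7 cases and fell in 2. Herpud1, a membrane scaffold of the degradation complex, stood at 41.3 and 52.0 without and at 62.8 and 65.3 under TSLP (log2 fold change 0.46 with an SE of 0.12, adjusted p = 0.0168). Sel1l and Syvn1, which encode the adaptor and the ubiquitin ligase of the same complex, rose by 0.31 (SE 0.10, adjusted p = 0.0319) and 0.27 (SE 0.09, adjusted p = 0.042), and neither passed once the length trend was removed (0.20 and 0.17, adjusted p = 0.104 and 0.135). With length and GC trends removed Syvn1 passed (0.32, adjusted p = 0.0162). Derl2, a channel component, went from 55.95 and 62.8 to 45.7 and 42.4 (-0.43, SE 0.10, adjusted p = 0.0105). Os9, a lectin that delivers substrates, went from 141.5 and 134.6 to 109.5 and 104 (-0.37, SE 0.09, adjusted p = 0.00989). Both falls were lost with library totals (adjusted p = 0.12 and 0.187) and remained with the length trend removed (-0.53 and -0.49). Neither Edem1 (0.24) nor Derl1 (0.09) passed.

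Of the phosphatase subunits that reverse the PERK signal, the constitutive Ppp1r15b rose by 0.30 (SE 0.08, adjusted p = 0.0215) and the stress-induced Ppp1r15a had 0.22 (SE 0.10, adjusted p = 0.113). In the translocon, Sec61b, on chromosome 4 (47474661 to 47483233, plus strand), stood at 213.6 and 196.5 without and at 114 and 106 with TSLP, the largest fall of the 30 (-0.90, SE 0.09, adjusted p = 0.0003). Its transcript, of 552 bp, was the shortest of the 30. With the length trend removed its log2 fold change was 0.029 (adjusted p = 0.785), and the call was lost. Sec61a1, the channel itself, had -0.09 and Ssr1, its associated subunit, 0.25, and neither passed.

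**Figure D2:**
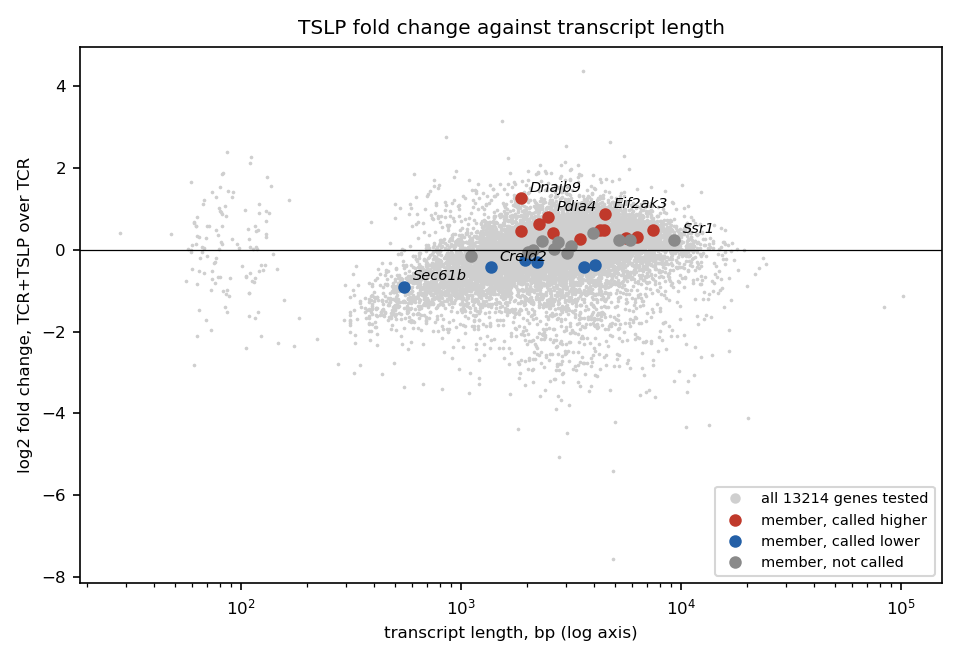
Log2 fold change of TCR+TSLP over TCR against transcript length in bp (log axis) for all 13214 genes tested (grey) and the 30 members (coloured by call). The cloud of all genes rises with length, from a median of -0.346 under 2000 bp to 0.186 at 4000 bp or more, and Sec61b at 552 bp lies within it.

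Over all genes, longer transcripts had higher fold changes with TSLP. For genes under 2000 bp the median log2 fold change was -0.35 over all genes and -0.20 over the 6 members. Between 2000 and 4000 bp the medians were 0.10 over all genes and 0.14 over 14 members, and at 4000 bp or more 0.19 and 0.30 over 10 members. Across the 30 members the rank correlation with length was 0.36, given as a description since the genes share the same 4 libraries. With the length trend removed 10 of the 30 rose, where 23.4% of all genes did, and 3 fell, where 17.8% did. The 9 genes that passed in the same direction with TMM, library totals, the RPKM scale and the length trend removed were Atf6, Eif2ak3, Xbp1, Hspa5, Hyou1, Dnajb9, Canx, Pdia4 and Herpud1. Of these Hspa5 and Canx did not pass with length and GC trends removed together. Library totals and the RPKM scale raised the median of all genes to 0.237 and 0.196, so rises passed there more easily than falls. Derl2, Os9 and Manf fell with TMM and with the length trend removed and did not pass in those 2 settings.

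The counts also moved with single libraries. Without TCR library 2 the test called 19 higher and 6 lower (31.8% and 30.5% of all genes), and without TCR library 1 it called 13 and 7 (28.4% and 27.3%). Without TCR+TSLP library 1 the counts were 8 and 3 (12.7% and 14.9%), and without TCR+TSLP library 2 they were 7 and 1 (10.6% and 13.1%). The calls on Atf6, Herpud1, Derl2 and Creld2 were lost without TCR+TSLP library 2, and those on Manf, Calr, Os9, Sel1l, Syvn1 and Ppp1r15b without either TCR+TSLP library. When all 4 groups shared 1 estimate of spread, 2 rose (3.75% of all genes) and 1 fell (5.64%). In 20 of the 30 genes TCR library 2 was the higher of the TCR libraries, where 52.8% of all genes were.

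Of the 10 genes that held an ERSE or ERSE-II, 4 rose with TSLP (Hspa5, Canx, Herpud1 and Syvn1), 2 fell (Creld2 and Calr) and 4 did not pass, where 22.7% of all genes rose and 23.1% fell. Their median log2 fold change was 0.22, against 0.245 for the 14 genes whose promoter held neither, of which 5 rose and 3 fell. Only exact matches within the searched window were counted, so these 14 may hold variants of the element. The difference between the 2 sets was not tested.

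Other genes of the pathway were taken from 8 lists, whose counts stand against 22.7% of all genes that rose and 23.1% that fell. Of 16 targets of PERK and ATF4, 10 rose and 2 fell with TSLP. Sesn2, a stress-induced brake on growth signalling, went from 10.2 and 9.58 to 28.0 and 30.6 normalised reads (log2 fold change 1.57, SE 0.11). Atf3, a stress-induced transcription factor, rose by 0.98 (SE 0.12). Ddit3, which encodes CHOP, fell from 59.8 and 53.5 to 32.3 and 27.7 (-0.92, SE 0.11, adjusted p = 0.000623). The fall of Ddit3, whose transcript is 871 bp long, was -0.35 with the length trend removed (adjusted p = 0.0309). Nupr1, a small stress protein, fell by 0.75, and its sign turned with the length trend removed (0.09, adjusted p = 0.716). Atf4 itself stood at 343 and 435 without and 427 and 405 with TSLP and did not pass (0.10, SE 0.12, adjusted p = 0.538).

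Of 20 genes of ER export and retrieval 11 rose and 0 fell (edgeR, with 14 at an unadjusted p under 0.05, where 53.9% of all genes were). With the length trend removed 10 rose and 1 fell, where 23.4% and 17.8% of all genes did. The coat subunit genes Sec23a (log2 fold change 0.92, SE 0.12) and Sec23b (0.68, SE 0.11) were the 2 with the smallest p. Of 12 genes of ER calcium handling and ER turnover 7 rose and 2 fell. Atp2a2, the calcium pump of the ER, rose by 0.75 (SE 0.09) and Stim1, its calcium sensor, by 0.71 (SE 0.10), while Itpr2, a calcium release channel, fell by 0.71 (SE 0.11). Sec62, a translocon partner that is also a receptor for ER turnover, went from 231 and 223 to 132 and 118 (-0.86, SE 0.09), and the fall was -0.97 with the length trend removed.

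Of 22 other folding and disulphide enzymes 5 rose and 8 fell. Ero1l, the oxidase that recharges disulphide isomerases, rose by 0.51 (SE 0.09) and Dnajc10, an ER reductase, by 0.50 (SE 0.09), while Fkbp2, a prolyl isomerase, fell by 1.66 (SE 0.13) and Cnpy2 by 0.82 (SE 0.09). With the length trend removed these falls were -0.84 and -0.35. Of 21 other degradation genes 7 rose, among them the mannosidase gene Edem3 (0.60, SE 0.11), and 3 fell, among them Aup1 (-0.70, SE 0.08) and Ubxn6 (-0.52, SE 0.09). Of 21 translocation genes 6 rose and 7 fell. Srp72 of the signal recognition particle rose by 0.54 (SE 0.08) and Ssr3 by 0.98 (SE 0.16), and Sec61g, with a transcript of 779 bp, fell by 0.88 (SE 0.09). The fall of Sec61g was -0.23 with the length trend removed (adjusted p = 0.0526), and the translocation list then had 5 higher and 3 lower (23.4% and 17.8% of all genes).

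Of 11 subunits of the oligosaccharyltransferase, which attaches glycans to new proteins, 3 rose and 3 fell. After removal of the length trend 7 rose and 1 fell, where 23.4% and 17.8% of all genes did. Tusc3 rose by 1.21 (SE 0.18) and its paralogue Magt1 fell by 0.58 (SE 0.11). The catalytic subunit gene Stt3a rose by 0.77 (SE 0.10), and Krtcap2 fell by 0.69 (SE 0.08) and turned to 0.28 with the length trend removed (adjusted p = 0.0263). Of 15 other sensors and processing factors 5 rose and 3 fell. Eif2ak4, a kinase of eIF2alpha that senses amino acids, rose by 0.57 (SE 0.11) and Nfe2l2, the oxidative stress factor, by 0.76 (SE 0.15). Creb3 fell by 0.58 (SE 0.10) and Bax, a death effector, by 0.52 (SE 0.10), and Bax turned to 0.06 with the length trend removed (adjusted p = 0.624). With library totals alone the numbers that rose and fell were 12 and 2 for the PERK and ATF4 targets, 14 and 0 for export, 8 and 2 for calcium, 10 and 5 for folding, 14 and 2 for degradation, 9 and 5 for translocation, 6 and 2 for the oligosaccharyltransferase and 9 and 2 for the other sensors. In that setting 38.3% of all genes rose and 15.1% fell.

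In the lung the question was how Tregs of OVA-immunized mice differ when they lack Crlf2. None of the 30 genes was called in either direction (0 of 30 by edgeR, 1 by DESeq2). At an unadjusted p under 0.05 were 5, all lower, where 9.12% of all genes were. Over all genes 0.771% of 12717 were called higher, 1.01% lower and 1.79% in either direction. The median log2 fold change of the 30 was -0.13, against -0.04 over all genes, and 13 of the 30 lay above 0. Intervals were wide. The lowest bound of a 95% interval was -1.20, for Dnajb9, and the highest 0.90, for Eif2ak3.

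Calr had the smallest p of the 30. The controls had 86.8, 80.7 and 98.9 normalised reads of it, against 62.6, 56.2 and 63.0 in the Crlf2-deleted libraries (88.8 ± 9.24 against 60.6 ± 3.805, SD, n = 3 each, log2 fold change -0.56, 95% interval -0.89 to -0.23, adjusted p = 0.104, edgeR). The groups did not overlap. DESeq2 called it lower (adjusted p = 0.026, with 3.96% of all genes called lower), as did the fit of all 4 groups (adjusted p = 0.0114, with 3.42%). Sdf2l1 stood at 106, 83.5 and 146.5 against 69.4, 74.0 and 80.9 (-0.60, SE 0.20, adjusted p = 0.203), again without overlap. Ssr1 stood at 83.8, 114 and 118 against 72.55, 74.9 and 77.1 (-0.49, SE 0.16, adjusted p = 0.188), also without overlap.

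Hspa5 stood at 656, 668 and 818 in the controls and at 551, 502 and 641 in the Crlf2-deleted libraries, with no overlap (log2 fold change -0.34, SE 0.14, adjusted p = 0.274). Xbp1 stood at 195.5, 150.5 and 210.4 against 166, 127 and 145.5, and the groups overlapped (-0.35, SE 0.17, adjusted p = 0.352). The sensor genes overlapped as well. Ern1 stood at 23.5, 27.4 and 40.6 against 28.1, 47.0 and 24.9 (0.12, SE 0.31), Atf6 at 39.85, 38.3 and 60.3 against 36.3, 46.5 and 36.3 (-0.23, SE 0.23) and Eif2ak3 at 14.8, 37.6 and 19.5 against 24.6, 24.1 and 27.0 (0.13, SE 0.34). Counted over the 30, the groups did not overlap in 7 genes that were lower (Hspa5, Sdf2l1, Calr, Pdia3, Edem1, Sec61b and Ssr1), where 11.6% of all genes were, and in 1 that was higher (Syvn1), where 10.5% were. The other 22 genes overlapped, with log2 fold changes between -0.35 and 0.18.

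**Figure D3:**
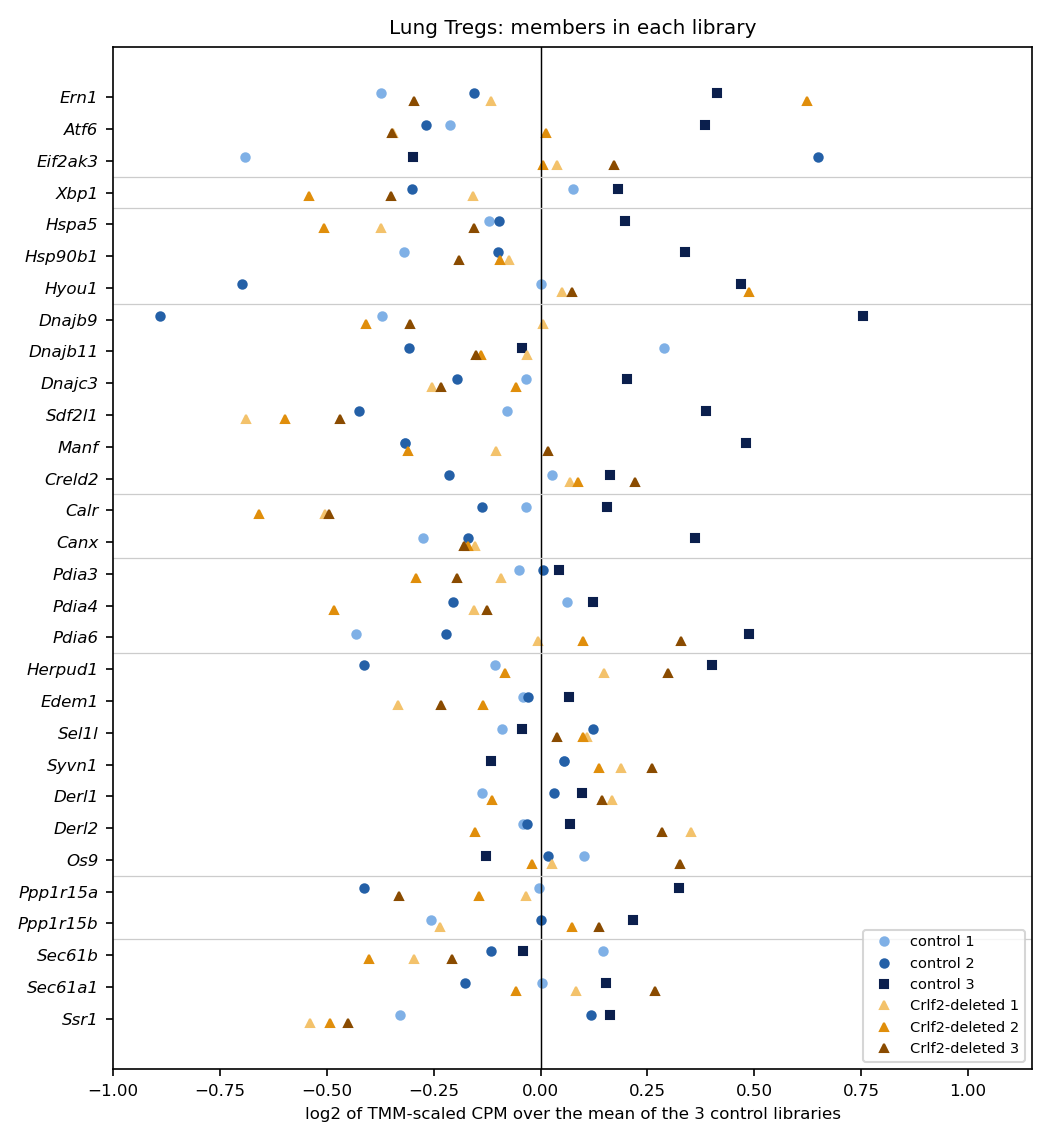
Level of each of the 30 genes in the 6 lung libraries, as log2 of TMM-scaled CPM over the mean of the 3 controls. Circles and squares are controls and triangles Crlf2-deleted libraries, and the dark squares of control 3 lie at the right of the controls in 24 of 30 genes.

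Control 3 stood apart. It was the highest of the controls in 24 of the 30 genes, where it was the highest in 33.8% of all genes. Its red cell genes summed to 72700 CPM, against 858 to 3440 in the other lung libraries, and its macrophage and monocyte genes to 7020. Those macrophage genes summed to 368 and 764 in controls 1 and 2 and to 2560, 2660 and 2770 in the Crlf2-deleted libraries. All 8 of the macrophage genes had reads in both lung groups. Lung epithelial genes summed to 17000 to 75600 in the controls and 2420 to 19600 in the Crlf2-deleted libraries, and their part in these results was not tested. In bulk samples fewer cells of a type and less RNA per cell cannot be told apart. Without control 3, 0 of the 30 genes were called (edgeR, 3 at an unadjusted p under 0.05), the median turned to 0.061, and 19 of 30 lay above 0. Calr was then at -0.47 (SE 0.16, adjusted p = 0.146), Sdf2l1 at -0.35 (adjusted p = 0.293), Ssr1 at -0.38 (adjusted p = 0.272) and Hspa5 at -0.23 (adjusted p = 0.367).

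Of the 12 genes that rose with TSLP in culture, 6 had a log2 fold change above 0 and 6 below 0 in the lung comparison, between -0.35 and 0.20, and none was called. Of the 6 that fell with TSLP, 3 lay above and 3 below 0. The 2 comparisons differ in tissue and stimulation, and the difference between them was not tested.

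In the lung 1 gene each of 2 pathway lists was called, both higher in the Crlf2-deleted libraries. Ddit4, a stress-induced inhibitor of growth signalling, stood at 68.6, 80.7 and 64.25 in the controls and at 160.5, 111 and 133 in the Crlf2-deleted libraries (log2 fold change 0.93, SE 0.17, adjusted p = 0.0446). Ero1l stood at 43.7, 52.7 and 50.05 against 95.1, 83.9 and 94.2 (0.91, SE 0.15, adjusted p = 0.0285). With the length trend removed both were as large and did not pass (0.95 and 0.94, adjusted p = 0.0972 and 0.0564). Without control 3 both passed (adjusted p = 0.0441 and 0.0217), and without any 1 of the other 5 libraries neither did, at log2 fold changes of 0.79 to 1.06 for Ddit4 and 0.84 to 0.97 for Ero1l. Without control 3 the macrophage sums given above were also higher in every Crlf2-deleted library than in the controls, and their part in these 2 calls was not tested. Atf4 had 0.30 (SE 0.15, adjusted p = 0.373) and Ddit3 0.29 (SE 0.22, adjusted p = 0.582). The other 6 lists had 0 genes called by edgeR with TMM scaling. At an unadjusted p under 0.05 were 7 of the 16 other sensors and processing factors, where 15.9% of all genes were. The median of that list was -0.29, against -0.04 over all genes. The remaining lists, of 11 to 21 genes, had 1 to 4 genes each at that threshold.

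The levels of the 30 genes per length were set side by side over the 4 groups. Tissue, stimulation, RNA of other cells and possibly the RNA input and library kit differ between spleen and lung. They cannot be told apart, so these values carry no test. Lung epithelial genes summed to 12.5 to 13.9 CPM in spleen and 2420 to 75600 in lung. Macrophage genes summed to 3.71 to 4.71 and 368 to 7020, and red cell genes to 0.624 to 1.58 and 858 to 72700. Their part in the levels was not tested. On the deposited RPKM scale the implied library total was 1.57 to 1.89 times the listed reads for spleen and 2.96 to 4.71 times for lung libraries, which lowers every lung value. Levels below are therefore TMM-scaled CPM per kilobase of transcript (scaled RPKM), with the deposited RPKM beside the ones that matter.

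**Figure D4:**
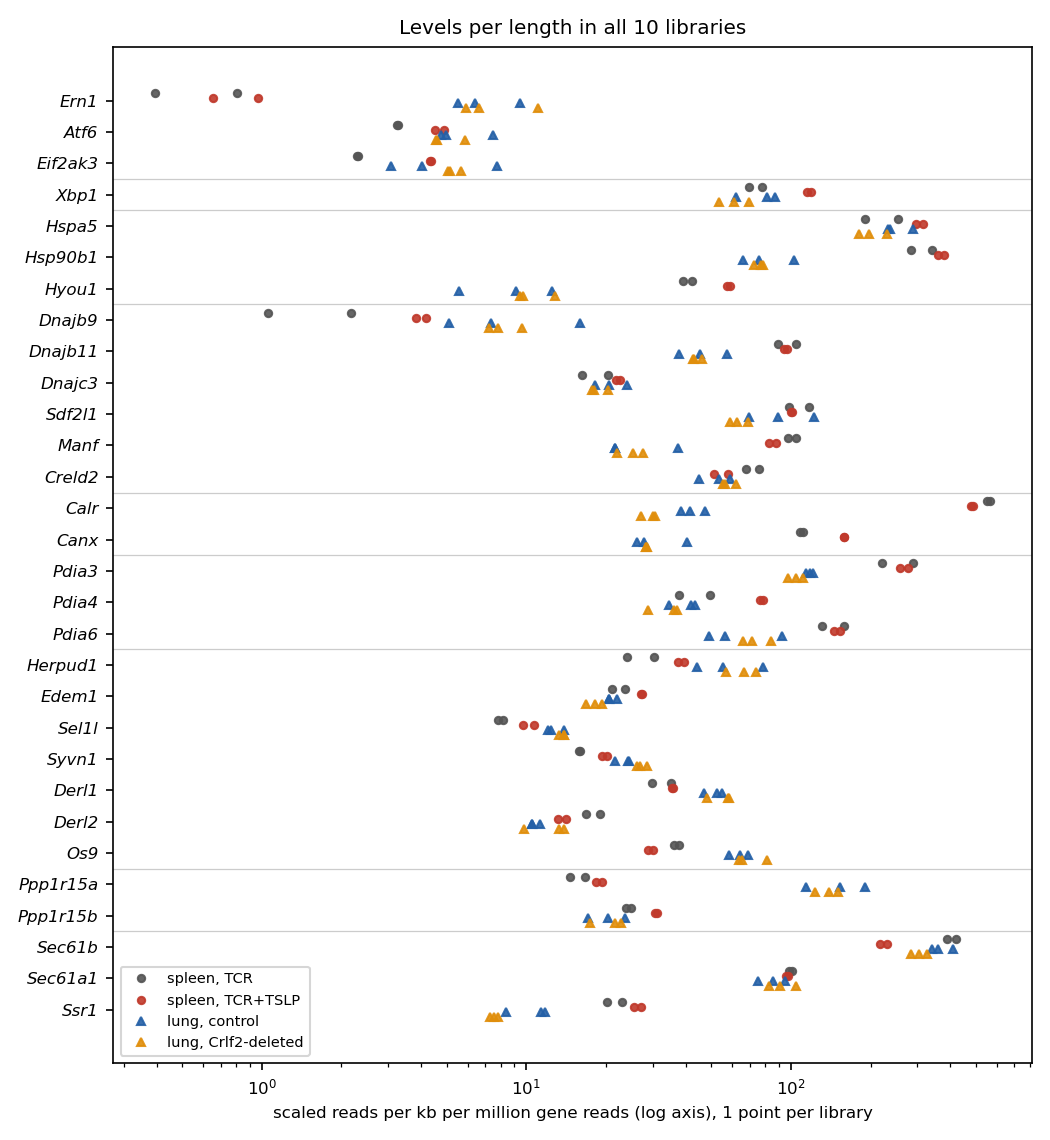
TMM-scaled CPM per kilobase (log axis) for the 30 genes, 1 point per library, circles for spleen and triangles for lung. Calr, Hsp90b1, Hyou1, Manf and Canx lie lower in all lung libraries, and Ern1, Dnajb9 and Ppp1r15a lie higher.

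Calr was the most abundant of the 30 in the TCR cultures, at 560.2 ± 9.76 scaled RPKM (SD, n = 2), and the 15th in the lung controls, at 42.4 ± 4.425 (SD, n = 3), a ratio of 13.2, or 24.3 on the deposited RPKM. Hyou1 was 4.48-fold, Hsp90b1 3.83-fold, Manf 3.76-fold and Canx 3.49-fold higher in the TCR cultures than in the lung controls. The opposite held for Ern1, which went from 0.599 in the TCR cultures to 7.12 in the lung controls, a ratio of 11.9, for Ppp1r15a, from 15.6 to 152.5, a ratio of 9.75, and for Dnajb9, from 1.62 to 9.47, a ratio of 5.86. The deposited RPKM gave 6.65, 5.33 and 3.25 for these 3 genes. Hspa5 was at 222 scaled RPKM in the TCR cultures, 306 with TSLP, 253.5 in the lung controls and 203 in the Crlf2-deleted Tregs, and Xbp1 at 73.3, 117, 76.7 and 61.2, and on this scale the tissues overlapped for both. On the deposited RPKM all lung libraries lay below all spleen libraries for Hspa5 (38.7 to 60.3 against 61.6 to 134.6) and for Xbp1 (10.2 to 18.0 against 22.3 to 51.1).

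On the scaled RPKM all 6 lung libraries lay above all 4 spleen libraries in 8 of the 30 genes, where 23.0% of 14445 genes did, and below in 10, where 28.8% did. On the deposited RPKM these numbers were 2 and 20, where 10.8% and 44.9% of genes did. The median ratio of lung control to TCR was 0.916 for the 30 genes and 0.978 for all genes on the scaled RPKM, and 0.494 and 0.528 on the deposited RPKM. Apart from Ern1, Ppp1r15a and Dnajb9, the genes that lay above on the scaled RPKM were Herpud1, Sel1l, Syvn1, Derl1 and Os9. On the deposited RPKM only Ern1 and Ppp1r15a stayed above. Spleen and lung then overlapped for Dnajb9, at 0.835 in control 2 and 1.785 in TCR+TSLP library 1. They also overlapped for Herpud1, Sel1l, Syvn1, Derl1 and Os9. The ratio of lung control to TCR was 1.195 for Herpud1 and 0.792 to 0.921 for Sel1l, Syvn1, Derl1 and Os9. In the lung controls the order of levels was led by Sec61b (371), Hspa5 (253.5), Ppp1r15a (152.5) and Pdia3 (118), and in the TCR cultures by Calr (560), Sec61b (404), Hsp90b1 (313) and Pdia3 (255).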

How the data were processed

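RNA sequencing of 10 Treg libraries was used as deposited. The authors deposited whole read counts and RPKM values per RefSeq transcript, 31682 transcripts per library and 1 library per file, per the file headers. Tools named in the submitters' processing notes are TopHat2 (2.2.1), Bowtie2 (2.2.6), bedtools (2.25.0), SAMtools (0.1.8) and edgeR, with mm10 as the build. The sources used here give neither their roles nor how reads were counted, by strand or on repeats, so genes that overlap others (14 of the 30 in RefSeq) are uncertain. Stimulated spleen Tregs were sequenced after ribosomal RNA depletion with a stranded kit, per the labels' protocols, and the lung kit is not given separately.

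Each symbol was represented by its transcript of highest mean reads. The test was edgeR 4.0.16 under R 4.3.3 (TMM, filterByExpr with a minimum count of 10, robust quasi-likelihood, two-sided) within each comparison, Benjamini-Hochberg over all genes, threshold 0.05. Adjusted p-values are edgeR's where no tool is named. The test was tried on simulated data first. Replicates of every group differed by more than sampling noise (chi-square per degree of freedom of 6.15 or more). Alternatives were a replicate block, DESeq2 1.42.0, limma 3.58.1 on log2(RPKM + 1), other scalings, no filter, less robust moderation, all groups in 1 fit, summed transcripts, loess removal (span 0.3) of length or length and GC trends, and leaving out each library. Marker sums are CPM. Genes given with a value in every library were Hspa5, Xbp1, the sensors and up to 6 called genes per direction by size, or the 3 of smallest p where fewer than 3 were called, and up to 2 per direction and pathway list by p, of which 1 is not reported here. Per-library values of Herpud1, Hyou1, Hsp90b1, Manf and Calr were added after they were seen, though Manf and Calr are among the 6 called lower with TSLP. The members and lists were chosen with earlier results of these data known.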

Additional observations from a re-analysis of the deposited data

How the results depend on the processing

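In the TSLP comparison the test called 12 members higher, 6 lower and 6050 genes in all. One fit of all 4 groups, which share an estimate of spread, called 2, 1 and 1356. The falls were 1 on log2(RPKM + 1) and with library totals alone (9.46% and 15.1% of all genes). They were 3 with the length trend or the length and GC trends removed (17.8% and 16.6%). Leaving out 1 library at a time gave 7 to 19 rises, 1 to 7 falls and 3212 to 8624 genes. In at least 1 setting 10 members had the other sign, 7 of them not called at first. Of the 3 called ones and Sdf2l1, which another setting called the other way, the values were: Sdf2l1 to 0.28 and 0.41 with length or length and GC trends removed, Sec61b to 0.029 and 0.054 with the same, and Manf to 0.077 and Calr to 0.11 on the RPKM scale, where the median of all genes was 0.196. The causes were not tested.

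In the lung comparison 0 members and 227 genes were called by edgeR (5 members at an unadjusted p under 0.05). DESeq2 called 1 member lower and 868 genes, the fit of all groups 1 lower and 873 genes, and limma on RPKM 856 genes. Summed transcripts gave 134 genes and either trend removal 96. Leaving out 1 library gave 0 members and 4 to 532 genes. The median of the members turned to 0.287 on the RPKM scale and 0.0626 with library totals, settings in which the median of all genes also rose, to 0.21 and 0.138, and without 1 library it ranged from -0.194 (control 2 left out) to 0.0612 (control 3 left out).

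Replicate numbers are shared between groups in the labels but are not said to mark a shared animal or day. Deviations of same-numbered libraries correlated at -0.125 in spleen and at 0.0837, -0.148 and -0.0447 in lung. With the replicate block 9 members rose (21.5% of all genes), 4 fell (22.5%) and 5817 genes were called with TSLP. In lung the block called 0 members and 121 genes. A crossed pairing in spleen, added after seeing the data, gave 15 (27.0% of all genes), 6 (26.8%) and 7104.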

Other observations

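The deposited files hold 2 rows for Xbp1, of 2247 and 2221 bp, which differ by 26 bp, the length that IRE1 is known to remove from this mRNA. In the spleen libraries the longer row held 1 and 2 reads more than the shorter one without TSLP and 8 and 16 more with TSLP, or 0.027, 0.0501, 0.0926 and 0.119% of its reads. In the lung libraries it held 34, 5 and 33 more in the controls and 35, 23 and 62 more in the Crlf2-deleted Tregs, or 1.45 to 2.33%. How a read was given to either row is not stated in the sources used here, so these differences are not a measure of splicing.

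Irf4, which plasma cells and activated Tregs both express, made up most of the plasma cell list in the spleen libraries, at 486 and 477 CPM without and 966 and 1030 with TSLP, while Mzb1, an ER protein of plasma cells and B cells, stayed at 5.74 to 6.80. The B cell list summed to 106 and 117 without and 84.6 and 86.7 with TSLP, and the CD8 T and NK cell list to 37.7 and 38.0 against 26.5 and 28.5. Dendritic cell and neutrophil lists summed to at most 9.58 CPM in spleen. In lung, control 3 had the highest B cell (323), dendritic cell (201) and CD8 T and NK cell (124) sums, where the other 5 libraries reached at most 30.3, 37.5 and 26.2. Endothelial and fibroblast genes summed to 69.7 to 124 in lung.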
